A study of Mus musculus with 6 samples.

Results

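Large cavity macrophages (LCMs) are the main resident macrophages of the peritoneal cavity, and KLF2 is a zinc finger transcription factor of the Krüppel-like family that their identity depends on. The regions described here are wide lone KLF2 peaks, stretches of KLF2 CUT&RUN enrichment that were broad and had no other peak close by. They were selected on width and spacing, both measured in the list of peaks itself. A peak on chromosomes 1 to 19 was taken when it was 600 bases or wider and no other peak lay at a gap under 10000 bases on either side. Of the 6602 peaks in the list, 6518 were on chromosomes 1 to 19, 3676 of these were lone by the spacing limit, and 365 of the lone peaks were wide. The other 3311 lone peaks were narrower and served for comparison.

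The study made 3 anti-GFP and 3 rabbit IgG CUT&RUN libraries of LCMs from GFP-KLF2 knock-in mice, in which GFP is fused to KLF2 at the endogenous locus. Both groups carried the knock-in allele, and each sample of sorted cells was divided between the antibodies. The mice of the study were males and females of 7 to 9 weeks. The sorted cells could not be checked against macrophage markers in a list of binding positions. Only the fusion protein was detected, so KLF2 without GFP was not examined in any library, and IgG served as the control for nonspecific cleavage.

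KLF proteins bind GC-rich DNA, typically at CACCC-type boxes in promoters and enhancers, through zinc fingers at their C terminus. In CUT&RUN, an antibody tethers a nuclease to the bound protein and the DNA around it is cut free, so a peak marks where released fragments overlapped. SEACR, the peak finder of the study, takes each unbroken stretch of signal as 1 block and ranks blocks by total signal, which makes the width of a peak the length of such a stretch. Width is thus neither the length of a binding site nor a level of binding, and several sites side by side can give 1 wide peak.

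The list holds positions only. It gives 1 set of peaks for the 3 anti-GFP libraries, with no signal, score or value per library, so the depth behind a peak and the spread between samples are unknown, and no difference below was tested. Intervals beside shares are 95% Wilson intervals and those beside medians are 95% binomial rank intervals. Both treat peaks as independent counts and cover counting error only. Positions are those of GRCm39, counted from 1.

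The wide lone peaks spanned 600 to 2480 bases, with a median of 743 bases and quartiles of 664 and 876 bases. They made up 5.6% of the peaks on chromosomes 1 to 19 and 11.8% of the bases that peaks covered there, 292942 bases in all. Most were only moderately broad. Of the 365, 228 were 700 bases or wider, 141 reached 800 bases, 48 reached 1000 bases, 16 reached 1200 bases and 4 reached 1500 bases. The narrower lone peaks had a median of 309 bases, with quartiles of 240 and 393 bases, a difference that the width limit itself sets.

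**Figure D1:**
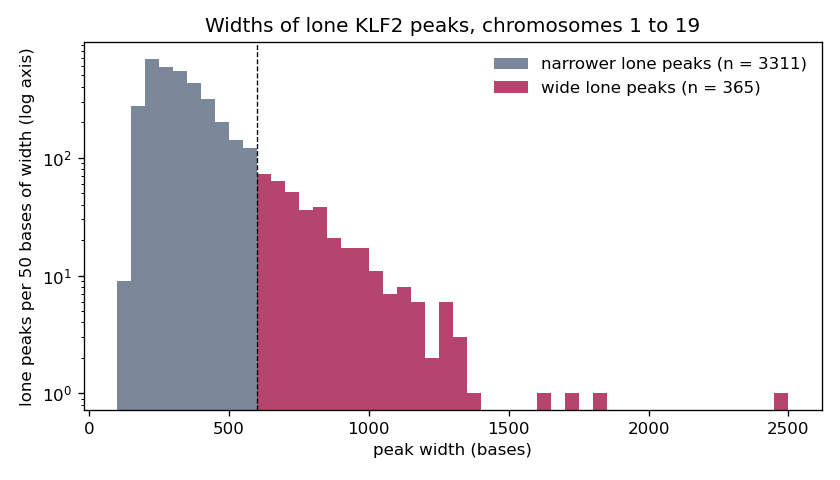
Number of lone KLF2 peaks on chromosomes 1 to 19 (log axis) by peak width in classes of 50 bases, with the width limit of 600 bases as a dashed line. The counts show no gap at the limit, and 1 wide lone peak of 2480 bases stands apart from all others.

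No break in the widths separated wide from narrower lone peaks. There were 37 lone peaks of 600 to 619 bases and 36 of 580 to 599 bases. Just inside the limit lay chr5:123152726-123153325 with 600 bases and chr5:93299856-93300456 with 601 bases. Just outside it lay chr19:6969762-6970360 and chr6:30173292-30173890, both with 599 bases. The spacing limit was equally smooth, with 9 wide peaks at a nearest gap of 10000 to 10999 bases and 11 at 9000 to 9999 bases. The nearest pair inside it was chr10:81214606-81215351 and chr10:81225401-81226126, which lay 10049 bases from each other. Just outside it, chr15:78699717-78700568 had another peak at 9979 bases.

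The widest lone peak, chr11:3134053-3136532, spanned 2480 bases. It was the sixth peak of chromosome 11 and the spacing rule barely admitted it, as the next peak to its left was 10230 bases away while the next to its right was 222527 bases away. The 5 peaks before it on the chromosome all lay within 100 kb of it, and 1 of them, chr11:3083211-3083954, was also a wide lone peak.

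The next 3 widest lay farther from other peaks. A stretch of 1807 bases at chr17:17844271-17846077 had its nearest neighbour 212252 bases away, and a stretch of 1723 bases at chr1:105917595-105919317 had its nearest at 318958 bases. Each had a single other peak within 1 Mb. The fourth, chr4:141520208-141521813, spanned 1606 bases in a richer setting, with 30 other peaks within 1 Mb and the nearest at 69014 bases.

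Ranks 5 to 12 ran from 1392 to 1279 bases. Here chr6:89620695-89622086, with 1392 bases, and chr3:36528922-36530200, with 1279 bases, were remote, at 741520 and 385674 bases from the nearest peak. A pair in this group measured 1322 bases, chr5:121974881-121976202 and chr17:36147311-36148632, but in different settings. The former had no other peak within 100 kb and the latter had 9. On chromosome 10, chr10:13840114-13841428 stood at the edge of an empty stretch, with a peak 40058 bases to its left and none for 5096480 bases to its right. A stretch of 1290 bases at chr1:120047998-120049287 lay likewise between a gap of 44327 bases on its left and one of 5300901 bases on its right. The others, chr2:91793976-91795268 and chr3:107992760-107994051, spanned 1293 and 1292 bases with nearest gaps of 21390 and 23768 bases.

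Ranks 13 to 20 ran from 1264 to 1177 bases. They were chr17:65920599-65921862, chr15:59245651-59246913, chr13:120062969-120064197, chr7:30850250-30851465, chr8:118224453-118225644, chr7:25476390-25477579, chr2:119307249-119308435 and chr7:51655043-51656219. The nearest gaps in this set ranged from 14991 bases for the region on chromosome 8 to 3124206 bases for chr7:51655043-51656219. No chromosome held more than 3 of the 20 widest regions, and chromosomes 7 and 17 held 3 each.

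Wide lone peaks had their nearest neighbour at a median of 56520 bases (44849 to 66671), and narrower lone peaks at 66007 bases (62347 to 69493). The intervals overlapped. The lower and upper quartiles were 23949 and 148528 bases for wide lone peaks and 27975 and 176042 bases for narrower ones. The gap on the farther side had a median of 232868 bases beside wide lone peaks and 308256 bases beside narrower ones. All of these gaps were thus shorter around the wide regions, by an amount that was small against the range within each set. The nearer peak was on the left for 172 wide lone peaks and on the right for 185, and 8 were the first or the last peak of their chromosome and had 1 neighbour.

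**Figure D2:**
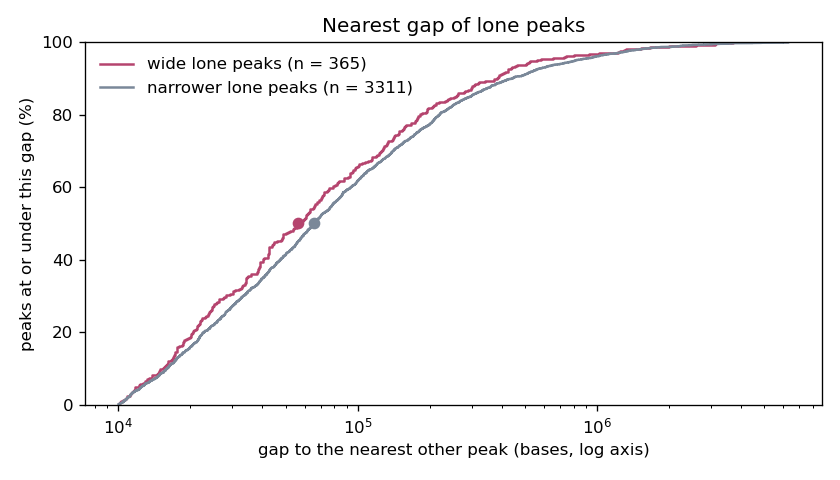
Cumulative share of lone peaks (%) by the gap to the nearest other peak (bases, log axis), with the medians as points. The curve of the 365 wide lone peaks lies slightly to the left of that of the 3311 narrower ones, with medians of 56520 and 66007 bases.

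A set of 12 wide lone peaks was remote, with no other peak within 1 Mb. The most isolated was chr7:59416780-59417805, 1026 bases wide, which had gaps of 3716307 and 4129397 bases. It was followed by chr2:140626320-140626987 with 668 bases and by chr7:51655043-51656219 with 1177 bases, whose nearest gaps were 3130657 and 3124206 bases. The region chr3:3040967-3042048 spanned 1082 bases, was the first peak of chromosome 3, and had its only neighbour 2598927 bases away. The share of wide lone peaks this remote was 3.29%, against 3.87% of narrower lone peaks.

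Other wide lone peaks sat in crowded parts of the genome. Around chr10:80587565-80588524, 960 bases wide, 97 other peaks lay within 1 Mb, and around chr10:80061340-80062415, 1076 bases wide, there were 73. The pair chr10:81214606-81215351 and chr10:81225401-81226126 had 15 other peaks each within 100 kb, the most for any wide lone peak. The latter of these was followed after 10884 bases by a peak of 1899 bases that had closer neighbours and so was not lone. Such crowding was not particular to wide lone peaks, as narrower ones reached 98 other peaks within 1 Mb and 21 within 100 kb.

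Counted from the centre of each peak, the mean density of other peaks was higher around wide lone peaks at every distance examined. The same peak could be counted around several lone peaks, so the distances are not separate results. No interval was computed for these means. Between 20 and 50 kb it was 1.3 other peaks per 100 kb around wide and 1.04 around narrower lone peaks. Between 500 and 1000 kb it was 0.559 and 0.519. Within 100 kb, wide lone peaks had a mean of 2.08 other peaks and narrower ones 1.73, while the median was 1 in both sets. No other peak at all lay within 100 kb of 126 wide lone peaks (34.5%, 29.8 to 39.5) and of 38.3% of narrower ones (36.7 to 40).

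**Figure D3:**
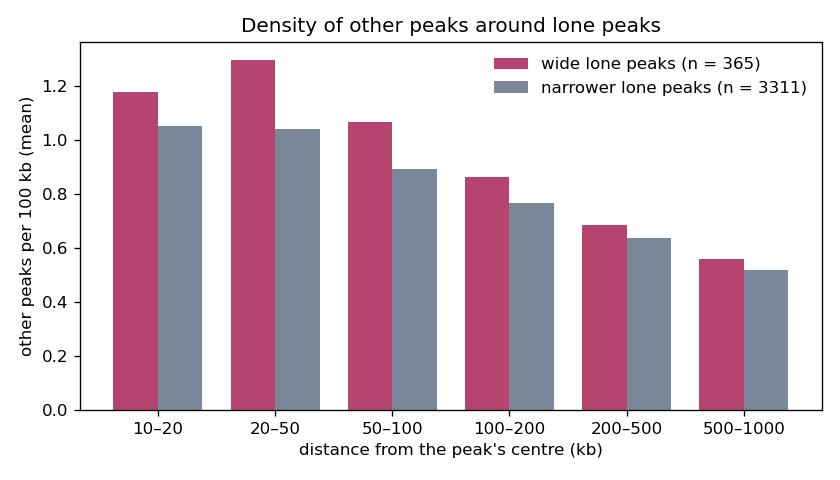
Mean number of other peaks per 100 kb (bars) in 6 classes of distance (kb) from the centre of wide lone and narrower lone peaks. The bar of wide lone peaks is the higher in each class, at 1.18 against 1.05 at 10 to 20 kb, 1.3 against 1.04 at 20 to 50 kb, where it peaks, and 0.559 against 0.519 at 500 to 1000 kb.

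The peaks next to a wide lone peak were ordinary in width. Their median was 335 bases over 722 neighbours, against 325 bases over the 6599 neighbours of narrower lone peaks. Of these neighbours, 10.7% and 10.1% were 600 bases or wider. Both neighbours were themselves lone for 212 of the 365 wide lone peaks (58.1%) and for 61.4% of the narrower ones. Within the wide lone peaks, width showed no marked relation to the nearest gap (Spearman's rho = -0.04 across 365 peaks of the same list, given as a description).

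In 27 cases the next peak in the list was another wide lone peak. For scale, 76.6% of the 722 neighbours of wide lone peaks were lone, and 9.93% of all lone peaks were wide. The count was not compared with one for narrower lone peaks, so it shows no tendency of wide lone peaks to lie together. The closest pair after that on chromosome 10 was chr5:134704941-134705869 and chr5:134717615-134718238, at a gap of 11745 bases. On chromosome 15, chr15:63932487-63933427 and chr15:63947329-63948139 were 13901 bases apart and spanned 941 and 811 bases. The broadest such pair was chr13:120062969-120064197 with 1229 bases and chr13:120151726-120152821 with 1096 bases, at a gap of 87528 bases. Over all 346 distances between neighbouring wide lone peaks on the same chromosome the median was 2760404 bases, and 21 were under 100 kb.

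In 4 stretches of 1 Mb there were 4 wide lone peaks each, the most found, counting stretches that begin with such a peak. The first, on chromosome 7, ran over 522081 bases from chr7:18962118-18962862 through chr7:19076624-19077552 and chr7:19095137-19095834 to chr7:19483309-19484198, with widths of 745, 929, 698 and 890 bases. Another on that chromosome held chr7:24602471-24603380, chr7:24670858-24671718, chr7:25016281-25016951 and chr7:25476390-25477579, the last of which was among the 20 widest. On chromosome 8, the group of chr8:117647968-117648698, chr8:117705022-117705710, chr8:118004336-118005136 and chr8:118224453-118225644 spanned 577677 bases. On chromosome 19, 4 such peaks of 667 to 837 bases lay between 45771201 and 46467683. All 4 stretches were rich in peaks of any kind. The wide lone peaks in them had 18 to 34 other peaks within 1 Mb, against a median of 10 over all 365. Whether these stretches held more wide lone peaks than their number of lone peaks would give was not tested.

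Wide peaks were a smaller part of lone peaks than of peaks with close neighbours. Of the 3676 lone peaks, 9.93% were 600 bases or wider (9 to 10.9), and of the 2842 peaks that were not lone, 12.8% were (11.7 to 14.1). At 1000 bases or wider the shares were 1.31% (0.986 to 1.73) and 2.67% (2.14 to 3.33). Of the 4 sets of peaks defined by width alone, each contained the next. Lone peaks made up 56.4% of all peaks and 365 of the 730 of 600 bases or wider (50%, 46.4 to 53.6). They were 38.7% (30.6 to 47.5) of the 124 of 1000 bases or wider. Of the 13 of 1500 bases or wider, 4 were lone (30.8%, 12.7 to 57.6), an interval that included the share of all peaks. The median widths of wide lone peaks and of the 365 wide peaks that were not lone were close, at 743 and 744 bases, and the upper quartiles were 876 and 944 bases.

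Split more finely by the nearest gap, the share of wide peaks was highest, at 14.5% (11.4 to 18.1), for peaks with another at 1000 to 2500 bases. It was 11.4% (9.13 to 14.3) at 10000 to 20000 bases, 10.4% (8.16 to 13.2) at 100000 to 200000 bases and 7.23% (4.87 to 10.6) at 500000 bases or more. Peaks with a neighbour nearer than 100 bases had a share of 11.9% (9.28 to 15.2), so the share did not rise steadily with closeness. Median widths hardly moved across these classes, from 309.5 to 350.5 bases.

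**Figure D4:**
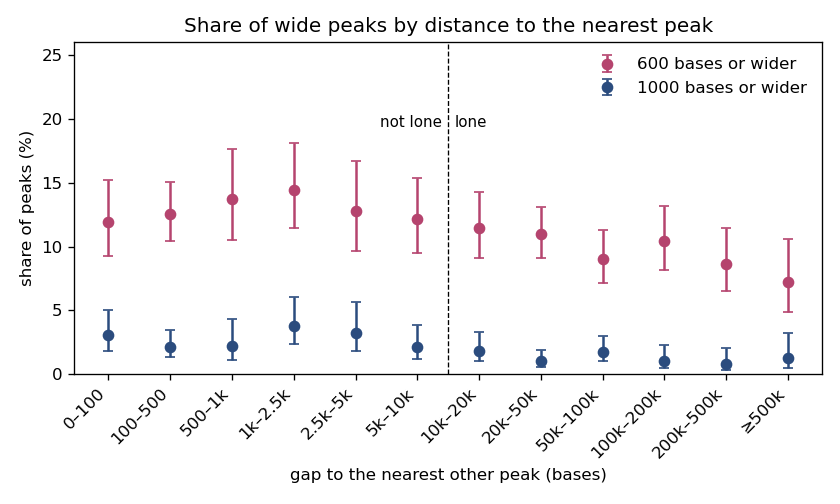
Share of all peaks on chromosomes 1 to 19 (%) that were 600 bases or wider, or 1000 bases or wider, by the gap to the nearest other peak (bases, with k for kb), with 95% Wilson intervals as bars. To the right of the dashed line the peaks are lone, and the share at 600 bases or wider is 11.4% at 10000 to 20000 bases and 7.23% at 500000 bases or more, with overlapping intervals and no steady fall between.

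The number of wide lone peaks depended on whether close peaks counted as 1. With peaks under 500 bases apart merged first, the same limits gave 695 wide lone regions. All 365 were among them, and the other 330 were each made of 2 to 4 listed peaks, with a median width of 918.5 bases. Of the 365 wide peaks that were not lone, 154 had another peak under 500 bases away.

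Each of the 19 chromosomes carried wide lone peaks, from 8 on chromosome 18 to 34 on chromosome 7, with 29 on chromosome 2, 28 on chromosome 8 and 27 on chromosome 11. The share of lone peaks that were wide ranged from 7.51% (4.44 to 12.4) on chromosome 6 to 12.7% (8.95 to 17.8) on chromosome 8. The pooled share of 9.93% was inside the interval of each of the 19. The numbers of wide and narrower lone peaks rose together over the chromosomes (Spearman's rho = 0.915 across 19 chromosomes, which share 1 list and are not replicates). The number of wide lone peaks also rose with that of protein-coding genes (rho = 0.838), so the former value does not by itself show a like spread. Per 100 protein-coding genes, wide lone peaks numbered from 1.17 on chromosome 6 to 2.69 on chromosome 8. The median width of wide lone peaks ran from 648 bases on chromosome 6 to 848.5 bases on chromosome 13. Chromosomes 14, 16 and 18 held none of 1000 bases or more, their widest spanning 860, 938 and 779 bases.

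**Figure D5:**
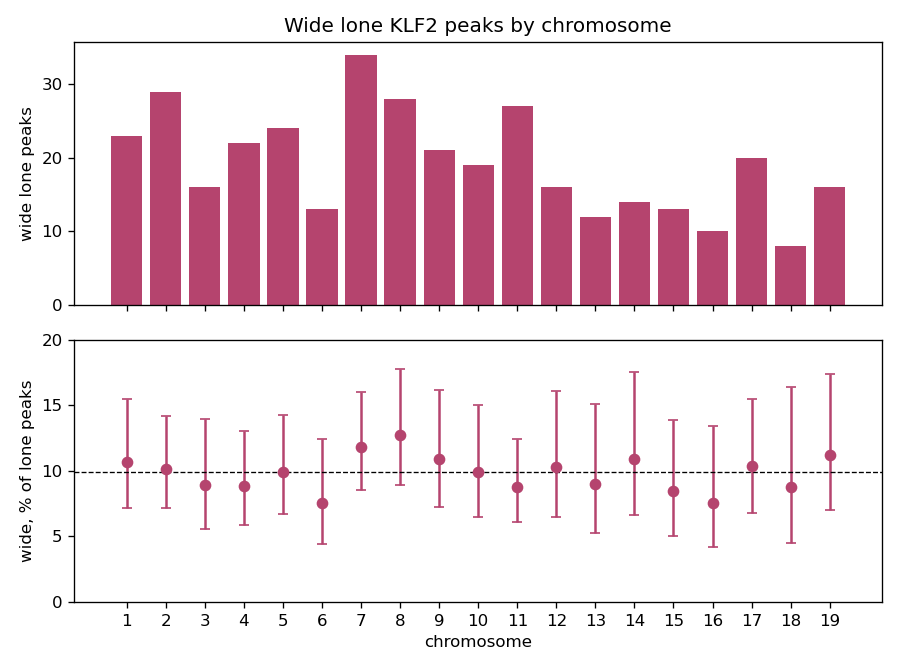
Number of wide lone peaks (top) and their share of all lone peaks in percent with 95% Wilson intervals (bottom) for chromosomes 1 to 19, with the pooled share of 9.93% as a dashed line. Counts range from 8 to 34 and every interval includes the dashed line.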

How the data were processed

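CUT&RUN was carried out on sorted LCMs of GFP-KLF2 mice with 50 µg/ml anti-GFP antibody or rabbit IgG, and sequencing depth was 3 to 5 M paired ends per the labels. Per the submitters' processing notes and the methods of the study, the authors used Trim Galore 0.6.7, Bowtie2 2.4.2 with GRCm39, scaling to E. coli spike-in reads and SEACR 1.3 against merged controls, and reported the top-ranked share of peaks. The deposited list holds the sequence name, start and end of each anti-GFP peak against IgG, with names and placeholders in its other columns. How the 3 libraries were combined is not given in the sources used here.

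Starts in the list are counted from 0 and were printed counted from 1. Widths (end minus start as listed), edge-to-edge gaps and other peaks by centre were computed with Python 3.11.15, NumPy 2.4.6, pandas 2.3.3 and SciPy 1.17.1, and the rule was tested on simulated data. The number of protein-coding genes on each chromosome came from GENCODE M21, whose positions were not used.

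The reference used here is of GRCm38, and the list is in GRCm39, as its peaks pass the GRCm38 ends of 3 chromosomes. Coordinates were not converted. Transcription start sites, gene lists, named genes, GC and CpG content, motifs, repeats and sequences were therefore not analysed here, and regions are named by position, as the 20 widest, as was set for this case. Other regions were chosen after their values were seen. The members and lists were chosen with earlier results of these data known. No test was made, since the list has no value per library.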

Additional observations from a re-analysis of the deposited data

Results flagged for a closer look

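Peaks outside chromosomes 1 to 19 entered none of the comparisons above, and were flagged as data left unanalysed there. On the X chromosome, the limits of 600 bases and 10000 bases gave 1 wide lone peak, chrX:7765664-7766346 with 683 bases, among 43 lone peaks (2.33%, 95% Wilson interval 0.412 to 12.1). Of the 16 peaks on unplaced scaffolds, 9 were 600 bases or wider, and of the 10 lone peaks there 5 were (50%, no interval computed). On GL456383.1, GL456390.1 and MU069434.1 the wide lone peak was the only peak of its sequence, so the spacing limit was met without any neighbour. The others were both on GL456392.1, at a gap of 14413 bases. This share is therefore not comparable with that of chromosomes 1 to 19. The Y chromosome held 3 peaks and none of this width.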

How the results depend on the processing

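With a width limit of 500 bases there were 628 wide lone peaks with a median of 632 bases, 17.1% of lone peaks, and the share of wide peaks among those that were not lone was 20.9%. With 800 bases these values were 141 peaks, 935 bases, 3.84% and 5.14%. Merging peaks under 500 bases apart gave 695 regions, a median of 809 bases, 17.2% and 22.6%. These values follow from the construction of the limits. Gaps of 5000 and 20000 bases, and leaving out chromosome 11 or chromosome 7, which was chosen after seeing the data, left the number within 1.5 times and the other 3 values inside their intervals. The nearest gaps did move with the gap limit. With 5000 and 20000 bases their medians were 42543.5 and 75725 bases for wide lone peaks and 54745 and 86341 bases for narrower ones. With 20000 bases, 42.4% of wide and 45.6% of narrower lone peaks had no other peak within 100 kb. Under all 5 of the other width, gap and merging limits the share of wide peaks was lower among lone peaks. These settings cut the same list into overlapping sets, so they are not separate support for that difference.

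Analyses of transcription start sites, GC, CpG, the KLF-type motif and soft-masked bases had been intended but were not run, as they need GRCm39. No paired analysis was possible because the 3 libraries have 1 list between them, which also prevented fits without single replicates. The depth at each region is unknown.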

Other observations

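Wide lone peaks were frequent near the starts of the chromosomes' sequence. This was noticed in the list and the limit was chosen afterwards. Of the 24 lone peaks that ended before 3.5 Mb, 7 were 600 bases or wider (29.2%, 95% Wilson interval 14.9 to 49.2), against 9.8% (8.88 to 10.8) of the other 3652. The 7 were chr2:3284527-3285247 with 721 bases, chr3:3040967-3042048 with 1082 bases, chr4:3081915-3082888 with 974 bases, chr5:3245697-3246323 with 627 bases, chr11:3083211-3083954 with 744 bases, chr11:3134053-3136532 with 2480 bases and chr17:3070141-3071176 with 1036 bases. In 5 of these 7 the region was the first peak of its chromosome. With limits of 3.25, 4 and 5 Mb the shares before the limit were 54.5% of 11, 22% of 41 and 20.8% of 77 lone peaks. The difference was not tested, and the sequence at these positions was not analysed here.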
